A study of Rattus norvegicus with 6 samples.

Results

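Complement component C3 and the A, B and C chains of complement component C1q (C1qa, C1qb and C1qc) were examined in rat kidney RNA. These 4 genes were taken by identifier from the 23487 genes of the count table: ENSRNOG00000046834 (C3), ENSRNOG00000012807 (C1qa), ENSRNOG00000012749 (C1qb) and ENSRNOG00000012804 (C1qc). All 4 identifiers carried the same symbol in the study's own gene annotation, and all 4 passed the filter on low counts that left 13644 genes for the test. Bulk RNA sequencing had been run on kidneys of 3 male Wistar Han rats after sub-total nephrectomy (SNx) and of 3 non-operated rats (NoOp). In the SNx rats most of the right kidney was resected, the left kidney was removed later, and the animals were killed once proteinuria or serum creatinine had passed a set threshold. The NoOp rats had no operation, so the loss of kidney tissue and the surgery itself cannot be told apart in this comparison. The ages of the animals are not stated in the sources used here, and both groups are of a single strain and sex.

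The complement system is a cascade of proteins that marks microbes, immune complexes and dying cells for removal. C1q is its recognition molecule for the classical pathway. It is built from equal numbers of A, B and C chains, each with a collagen-like stalk and a globular head, and is made largely by macrophages and related myeloid cells. C3 is the protein on which all activation pathways converge, since its cleavage releases the inflammatory fragment C3a and deposits C3b on target surfaces. Liver cells make most of the C3 in plasma, but tubular epithelium and other kidney cells can make it locally. The comparison asks whether the transcripts of the recognition step and of the central step differ in abundance between the remnant and the healthy kidney.

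The 3 C1q genes lie next to one another on rat chromosome 5, in the order C1qb, C1qc, C1qa and on the same strand where a promoter entry exists, while C3 is on chromosome 9. The 250 bases before the annotated start of C3, C1qa and C1qb are shown because these genes were higher in SNx in the comparison below. They are RefSeq sequences of the build GRCr8, which is not the build used for the counts, and each is written 5′ to 3′ along the gene's strand. Matches to any of 4 short motifs are in capitals. C1qc is named only.
C3, chr9:2201340-2201589, minus strand: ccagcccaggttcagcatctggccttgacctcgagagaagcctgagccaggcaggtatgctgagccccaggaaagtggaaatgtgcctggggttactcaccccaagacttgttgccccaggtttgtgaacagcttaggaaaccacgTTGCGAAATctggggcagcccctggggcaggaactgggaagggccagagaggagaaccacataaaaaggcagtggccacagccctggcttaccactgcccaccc
C1qa, chr5:154419934-154420183, minus strand: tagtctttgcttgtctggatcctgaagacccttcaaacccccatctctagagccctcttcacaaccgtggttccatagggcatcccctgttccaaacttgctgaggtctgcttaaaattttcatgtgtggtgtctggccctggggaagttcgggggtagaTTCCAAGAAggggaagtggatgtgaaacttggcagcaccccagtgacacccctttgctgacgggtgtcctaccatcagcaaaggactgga
C1qb, chr5:154407828-154408077, minus strand: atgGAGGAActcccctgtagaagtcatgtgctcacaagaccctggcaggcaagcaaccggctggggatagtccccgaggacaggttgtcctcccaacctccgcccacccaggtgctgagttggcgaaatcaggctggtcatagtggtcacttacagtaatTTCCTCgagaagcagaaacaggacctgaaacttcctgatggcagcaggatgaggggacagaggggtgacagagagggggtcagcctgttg

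The motifs were searched on both strands and were TATAAA (the TBP binding box), TTNNGNAAT (C/EBP), GAGGAA (the core of a PU.1 site) and TTCNNNGAA (STAT). The last is its own reverse complement. C3 held a C/EBP match from 104 to 96 bases before the start, a motif found in 10.9% of the 33469 promoters of the table. C1qa held a STAT match from 90 to 82 bases before the start, present in 7.67% of promoters. C1qb held GAGGAA at 247 to 242 bases before the start and its reverse complement at 90 to 85 bases, and 23.3% of promoters hold this core at least once. TATAAA was not found in these windows and occurs in 12.9% of promoters. A match is a description of the letters and not evidence of binding or of shared regulation.

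The libraries held between 9572955 and 13140864 estimated counts, and every SNx total was below every NoOp total. Levels are therefore given as CPM, the counts per 1000000 counts of the library size scaled by TMM, the trimmed mean of M-values. Values of single libraries are listed in the order of replicates 1, 2 and 3 of a group. The study's methods name 3 rats per group, and each library is taken as 1 animal. The study's methods describe a wide range of RNA integrity over all samples, which reaches low values. The part of RNA integrity in the results was not tested, since those methods give no values for single libraries.

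C3 RNA was 8.92-fold higher in SNx than in NoOp, and the C1q chains were 4.51-fold to 6.79-fold higher. All 3 SNx libraries lay above all 3 NoOp libraries for each of the 4 genes, with no overlap. All 4 genes passed the test (limma on voom-transformed counts, Benjamini-Hochberg adjusted p under 0.05). The background for this count is high. Of all genes tested, 35.8% passed in either direction and 19.2% passed as higher in SNx, while 51.6% did not overlap between the groups and 27.1% were higher in SNx without overlap. In bulk tissue, more cells of a type and more RNA per cell cannot be told apart.

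**Figure D1:**
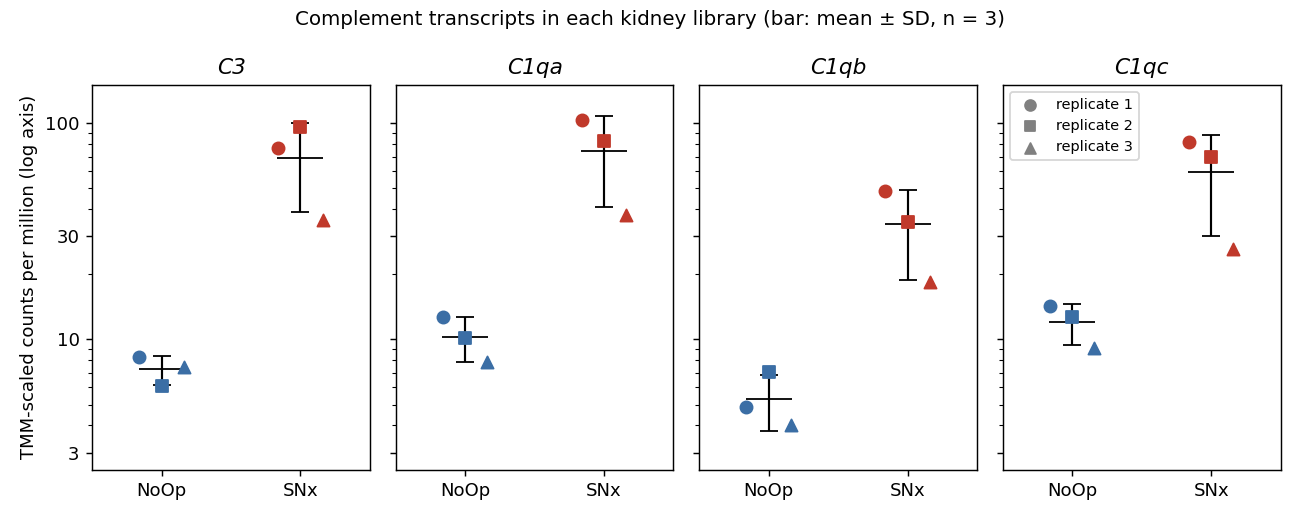
Levels of C3, C1qa, C1qb and C1qc in each kidney library, as TMM-scaled CPM on a log axis. Circles, squares and triangles are replicates 1, 2 and 3, blue is NoOp and red is SNx, and the black bars give the mean ± SD (n = 3 per group). Every SNx point sits above every NoOp point, and SNx replicate 3 is the lowest SNx point in all panels.

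C3, the central component, had 85, 77 and 78 estimated counts across the NoOp libraries, against 796, 1234 and 338 across SNx. On the CPM scale its levels were 8.27, 6.09 and 7.49 in the NoOp libraries and 76.6, 95.4 and 35.7 in the SNx libraries. SNx replicate 2 was the highest and SNx replicate 3 the lowest of the operated animals, and even the latter stood 4.32-fold above the highest NoOp library. The mean level rose from 7.28 ± 1.10 CPM to 69.2 ± 30.5 CPM (SD, n = 3 each). The log2 fold change was 3.16 (standard error 0.49), with a 95% interval from 2.01 to 4.3 and a limma adjusted p of 0.00424. C3 had the largest fold change of the 4 genes.

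C1qa encodes the A chain of C1q. It had 131, 129 and 82 counts across NoOp, against 1072, 1072 and 357 across SNx. These corresponded to levels of 12.7, 10.2 and 7.87 CPM in NoOp and 103, 82.8 and 37.7 CPM in SNx. The lowest SNx library was 2.96-fold above the highest NoOp library. The means were 10.3 ± 2.43 and 74.6 ± 33.5 CPM (SD, n = 3 each), with a log2 fold change of 2.76, a standard error of 0.46, a 95% interval from 1.68 to 3.84 and a limma adjusted p of 0.00524.

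C1qb encodes the B chain and had the fewest counts of the 4 genes in every library except NoOp replicate 2, where C3 had 77. Its counts were 50, 89 and 42 across NoOp, against 505, 453 and 175 across SNx. Its levels were 4.86, 7.04 and 4.03 CPM in NoOp and 48.6, 35.0 and 18.5 CPM in SNx. Its NoOp order differed from that of the other chains, with replicate 2 the highest. The smallest count, 42, has an exact 95% Poisson interval from 30.3 to 56.8, so counting error alone is wide here and such intervals cover nothing else. They treat an estimated count as a count of reads and are approximate for that reason. The means were 5.31 ± 1.55 and 34 ± 15.1 CPM (SD, n = 3 each). The log2 fold change was 2.59 (standard error 0.49), with a 95% interval from 1.45 to 3.73 and a limma adjusted p of 0.00732.

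C1qc encodes the C chain. It had 146, 161 and 95 counts across NoOp, against 848, 905 and 249 across SNx. Its levels were 14.2, 12.7 and 9.12 CPM in NoOp and 81.6, 69.9 and 26.3 CPM in SNx. SNx replicate 3 came closest to the controls here, at 1.85-fold the highest NoOp library. The means were 12 ± 2.61 and 59.3 ± 29.2 CPM (SD, n = 3 each), and the log2 fold change was 2.17 (standard error 0.50), with a 95% interval from 1.01 to 3.33 and a limma adjusted p of 0.0138. This was the only call among the 4 genes that depended on a single library: the limma adjusted p was 0.05001 without NoOp replicate 2 and 0.05169 without NoOp replicate 3, with log2 fold changes of 2.21 and 1.99. Over its 15 other settings the adjusted p of C1qc ranged from 1.06e-07 with DESeq2 to 0.05169.

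Among the 13644 genes tested, the log2 fold change of C3 exceeded that of 98.2% of genes, C1qa that of 97.3%, C1qb that of 96.9% and C1qc that of 95.3%. A log2 fold change of 2 or more was present in 5.56% of all genes tested, and all 4 complement genes were within that share. Their levels also moved within the ranking of genes by log2 CPM. C3 stood above 26.5% of genes in NoOp and above 79.0% in SNx. The corresponding shares were 32.2% and 80.5% for C1qa, 21.6% and 59.5% for C1qb, and 35.1% and 74.3% for C1qc. These ranks use counts that are not divided by transcript length, so the 4 genes are not ordered against one another by level.

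**Figure D2:**
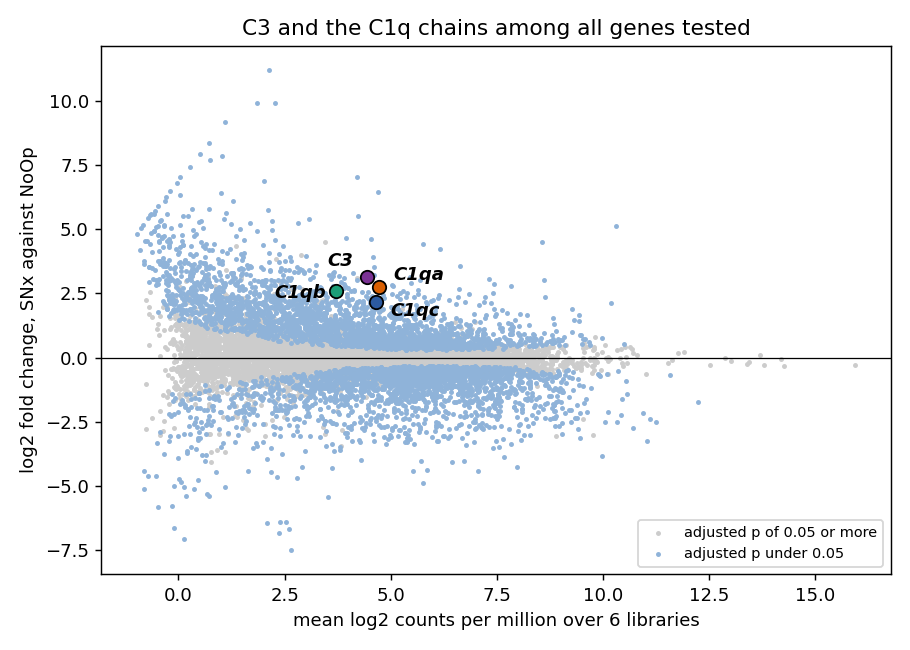
Log2 fold change (SNx against NoOp, limma-voom) against the mean log2 CPM over the 6 libraries, for all 13644 genes tested. Grey and blue points are genes above and below an adjusted p of 0.05, and the 4 labelled points are C3, C1qa, C1qb and C1qc, which lie between 2.17 and 3.16 on the vertical axis.

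The operated animals varied more than the controls. The coefficient of variation of the CPM level was 44.1% for C3, 44.9% for C1qa, 44.3% for C1qb and 49.2% for C1qc in SNx, against 15.1%, 23.7%, 29.3% and 21.7% in NoOp (n = 3 each). This spread came with SNx replicate 3, which was the lowest SNx library for every gene. That library is also the only SNx library of the second number range described below, so animal and range cannot be told apart. The log2 distance of SNx replicate 3 above the NoOp mean was 2.31 for C3, 1.90 for C1qa, 1.84 for C1qb and 1.15 for C1qc. SNx replicate 1 stood at 3.41, 3.36, 3.23 and 2.79 for the same genes, and SNx replicate 2 at 3.72, 3.04, 2.76 and 2.57. SNx replicate 1 was thus the highest library for each C1q chain, and SNx replicate 2 was the highest for C3. Without SNx replicate 3 the log2 fold changes were 3.56 for C3, 3.19 for C1qa, 2.94 for C1qb and 2.66 for C1qc.

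The numbers in the library titles form a first range, which holds NoOp replicate 1 beside SNx replicates 1 and 2, and a second range. The second range holds SNx replicate 3 beside NoOp replicates 2 and 3. What the ranges stand for is not stated. Within the first range the log2 difference in level was 3.37 for C3, 2.86 for C1qa, 3.09 for C1qb and 2.41 for C1qc. Within the second it was 2.40, 2.07, 1.79 and 1.29 for the same genes. All 4 genes were higher in SNx within both ranges. Each range has a single library of one of the groups, so these are values without a test. The smaller differences of the second range rest on SNx replicate 3, the lowest SNx library, so that animal and the range cannot be told apart. With the range as a term in the limma model, the log2 fold changes were 2.87, 2.47, 2.36 and 1.88, with limma adjusted p-values of 0.00212, 0.00222, 0.00672 and 0.00527 for C3, C1qa, C1qb and C1qc.

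**Figure D3:**
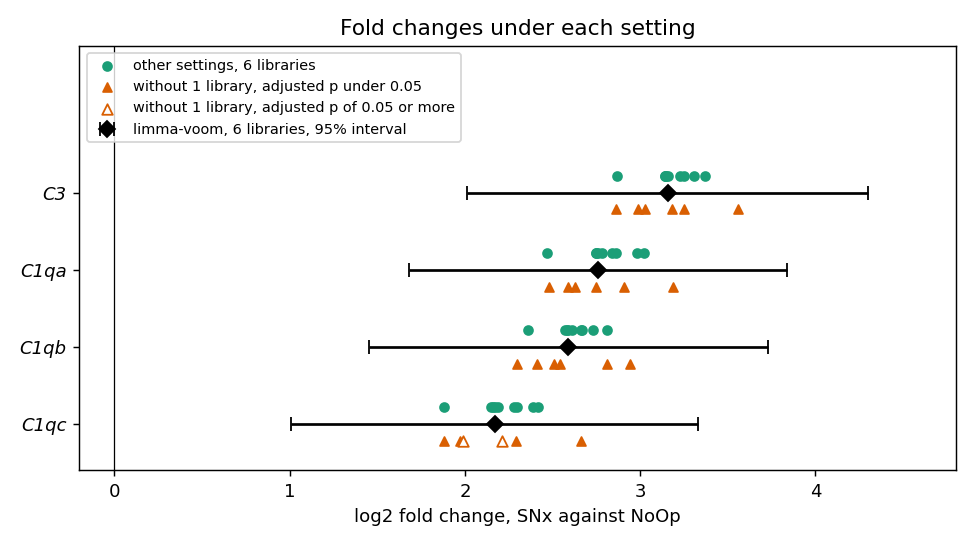
Log2 fold change of each gene (SNx against NoOp) by limma-voom on all 6 libraries with its 95% interval (black diamonds), under other settings with all libraries (green circles), and with 1 library left out (orange triangles). Open triangles have an adjusted p of 0.05 or more and occur only for C1qc, without NoOp replicate 2 or 3, while all points lie between 1.88 and 3.56.

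The authors' normalized table of log2 CPM was used as a check. The mean for C3 was 2.85 ± 0.22 log2 CPM in the controls against 6.0 ± 0.73 after SNx (SD, n = 3 each). For C1qa they were 3.33 ± 0.34 and 6.11 ± 0.76, for C1qb 2.37 ± 0.41 and 4.99 ± 0.70, and for C1qc 3.55 ± 0.33 and 5.75 ± 0.87. Limma with a mean-variance trend gave log2 fold changes of 3.15 for C3, 2.78 for C1qa, 2.61 for C1qb and 2.19 for C1qc on this table. The limma adjusted p-values were 0.00128, 0.00214, 0.00265 and 0.00642 over 12135 genes, of which 36.3% were called and 19.4% were called higher in SNx.

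Ratios within a library do not depend on how libraries are scaled, and they were used to ask whether the 4 transcripts rose to the same extent. The log2 ratio of C3 counts to the summed C1q counts was -1.94, -2.30 and -1.49 across NoOp, against -1.61, -0.98 and -1.21 across SNx. The group means were -1.91 ± 0.41 and -1.26 ± 0.32 (SD, n = 3 each), a difference of 0.65 (exact two-sided permutation p = 0.2). The groups overlapped, since NoOp replicate 3 lay above SNx replicate 1. The larger fold change of C3 was thus not separated from that of C1q as a whole by the spread between animals. With 3 animals against 3, the smallest p that this test can give is 0.1.

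Within C1q, the share of counts from each chain was compared between the groups. C1qa took 40.1%, 34% and 37.4% of the summed C1q counts across NoOp, against 44.2%, 44.1% and 45.7% across SNx. C1qc took 44.6%, 42.5% and 43.4% in NoOp and 35.0%, 37.2% and 31.9% in SNx. For both chains the NoOp and SNx libraries did not overlap, with C1qa higher and C1qc lower in SNx. The shares of a library sum to a whole, so the differences of C1qa and C1qc are not independent of each other. The test that follows cannot give a p under 0.1, so it cannot decide these differences at 0.05. Counts are not divided by transcript length, so the shares are compared between groups and the chains are not ordered by level.

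The mean share of C1qa was 37.2% ± 3.02 in the controls against 44.7% ± 0.896 after SNx (SD, n = 3 each), a difference of 7.5 percentage points. The share of C1qc was 43.5% ± 1.09 and 34.7% ± 2.69, a difference of -8.80 points. Both gave p = 0.1 in the exact two-sided permutation test, the smallest possible, and 0.15 after adjustment over the 3 chains. Neither passed, and with 3 animals per group no difference could. C1qb took 19.3% ± 4.10 and 20.6% ± 1.89, a difference of 1.31 points within the spread between animals (exact two-sided permutation p 0.7). The NoOp shares rest on 219 to 379 C1q counts per library and the SNx shares on 781 to 2430. Exact 95% binomial intervals of the C1qa share ran from 29.3% to 39.0% in NoOp replicate 2 and from 34.7% to 45.6% in NoOp replicate 1, against 42.1% to 46.1% in SNx replicate 2. The intervals of NoOp replicate 1 and SNx replicate 2 overlap, and they cover counting error only. These intervals also treat estimated counts as read counts and are approximate. For the C1qc share the NoOp intervals ran from 39.2% to 50.2%, 37.4% to 47.6% and 36.7% to 50.2% in replicates 1, 2 and 3. The SNx intervals ran from 33.1% to 36.9%, 35.3% to 39.2% and 28.6% to 35.3% in replicates 1, 2 and 3. That of SNx replicate 3 overlapped no NoOp interval, and the others each overlapped at least 1. Within each NoOp library the intervals of C1qa and C1qc overlapped, and within each SNx library they did not. The NoOp intervals rest on fewer counts and are wider, so this contrast depends in part on the number of counts. It does not order the chains by level.

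**Figure D4:**
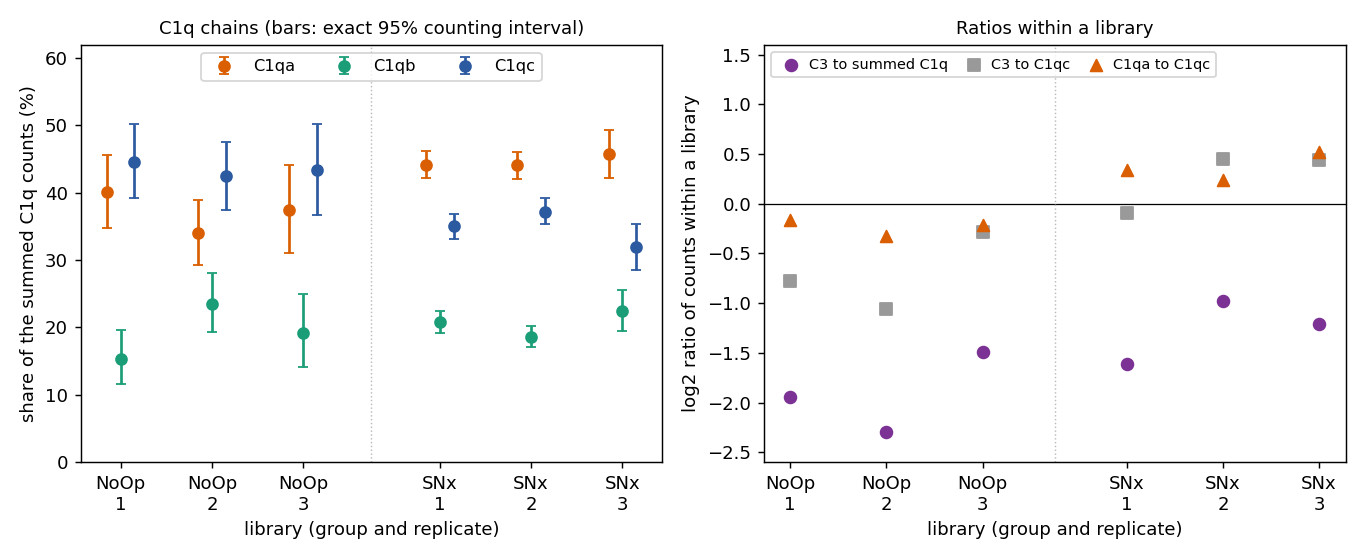
Left, share of each C1q chain in the summed C1q counts of a library, in percent, with exact 95% counting intervals. These intervals treat estimated counts as read counts. Right, log2 ratio of counts within each library for C3 to summed C1q, C3 to C1qc and C1qa to C1qc. The C1qa shares lie between 34% and 40.1% in NoOp and between 44.1% and 45.7% in SNx. The intervals of C1qa and C1qc overlap within each NoOp library and within no SNx library, but the NoOp intervals rest on fewer counts and are wider. The C3 to summed C1q ratios of the groups overlap.

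Taken as pairs, the log2 ratio of C1qa to C1qc was -0.16, -0.32 and -0.21 across NoOp, against 0.34, 0.24 and 0.52 across SNx. The difference was 0.60, with no overlap between the groups. This ratio uses the same counts as the shares of C1qa and C1qc, so it is not a separate result. The log2 ratio of C3 to C1qc was -0.78, -1.06 and -0.28 in NoOp and -0.09, 0.45 and 0.44 in SNx, a difference of 0.98, also without overlap. Each of these gave p = 0.1 in the exact two-sided permutation test, and 0.3 after adjustment over the 6 pairs. The differences of the other pairs were 0.38 for C3 to C1qa, 0.53 for C3 to C1qb, 0.16 for C1qa to C1qb and 0.44 for C1qb to C1qc, and in these the groups overlapped. Their exact two-sided permutation p-values were 0.3, 0.4, 0.7 and 0.2. These differences moved when single libraries were left out. C3 to C1qa was 0.25 without NoOp replicate 2, 0.58 without NoOp replicate 3 and 0.23 without SNx replicate 2. C3 to C1qb was 0.19 without NoOp replicate 2 and 0.32 without SNx replicate 2. C1qa to C1qb was 0.37 without NoOp replicate 1, -0.06 without NoOp replicate 2 and 0.09 without SNx replicate 2. C1qb to C1qc was 0.26 without NoOp replicate 1. None of the 6 pairs passed after adjustment, and none could, since the smallest possible p is 0.1. A p that misses the threshold does not show that the fold changes were equal.

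Likeness of pattern was measured as the root mean square difference between genes in TMM-scaled log2 CPM over the 6 libraries, after each gene was centred on its own mean. By this measure C1qa was the C1q chain nearest to C3, at 0.329, followed by C1qb at 0.491 and C1qc at 0.559. Their log2 fold changes stand in the same order of nearness to that of C3, and a gap in fold change enters this distance. Outside these 4 genes, 22 genes lay nearer to C3 than C1qa did, 149 nearer than C1qb and 240 nearer than C1qc. The nearest gene to C3 was ENSRNOG00000010208, at 0.192, with levels of 2.14, 1.90 and 2.30 CPM in NoOp and 26.4, 26 and 14.3 CPM in SNx. The nearest gene to the mean of the 3 C1q chains was ENSRNOG00000008182, at 0.119. Its levels were 5.83, 5.38 and 3.65 CPM in NoOp and 45, 40.8 and 17.9 CPM in SNx, with the same order of libraries within SNx as the C1q chains. C3 lay at 0.437 from that mean, with 255 other genes nearer. These distances are descriptions over 6 libraries that fall into 2 groups, and the reference table used here pairs neither identifier with a symbol.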

How the data were processed

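Kidney RNA of 3 SNx and 3 NoOp rats was depleted of ribosomal RNA and sequenced as strand-specific, paired-end libraries. The submitters' processing notes name Salmon, limma and the build rn6, with versions not given in the sources used here. Of the tables of the whole series, one gives whole-number estimated counts, which the authors summarised per gene with tximport and deposited. The study's methods name tximport's length-scaled TPM unit, and for the genes described here the voom table held back-transformed values close to these counts. Whether the whole-number table itself carries that scaling is not stated. Another gives log2 CPM values that the authors deposited after voom. All 12 single-library files held the same values as their column. Groups came from the treatment label, and replicates were numbered in order of deposition, which pairs no animals.

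Counts were filtered with edgeR 4.0.16 (filterByExpr, minimum count 10, minimum total 15), scaled with TMM and tested in R 4.3.3 by voom and limma 3.58.1. The model held group alone, and two-sided p-values were adjusted over 13644 genes by the Benjamini-Hochberg method. Within-library ratios and shares were compared by exact permutation tests over all 20 splits. Other scalings, filters and tests were tried as alternatives, including edgeR's quasi-likelihood test and DESeq2 1.42.0, and the tests were tested on simulated data. The ranking of genes used log2 CPM with a prior count of 2. The members, the lists and the motifs were chosen with earlier results of these data known. The rule for naming genes took the 4 members, other complement genes by symbol, and the genes nearest in pattern to C3 and to the mean of the C1q chains, limited to identifiers that rose where no symbol was paired. The reference table paired 0 identifiers with symbols. The study's own annotation pairs some, but it was used only to check the names of the 4 members. The other complement genes, the markers of cell types that make these proteins and the labelled tissue were not analysed here. No position of the counting build is given.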

Additional observations from a re-analysis of the deposited data

How the results depend on the processing

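Other settings gave 60 fold changes for C3 and the C1q chains, and 58 of them stayed positive with an adjusted p under 0.05. The remaining values were those of C1qc without NoOp replicate 2 or 3, and its log2 fold change ranged from 1.88 to 2.66 when 1 library was left out, with an adjusted p of at most 0.05169. With all 6 libraries the fold change ranged from 2.87 to 3.37 for C3, from 2.47 to 3.02 for C1qa, from 2.36 to 2.81 for C1qb and from 1.88 to 2.42 for C1qc on the log2 scale. Library size alone moved the median of all tested genes from 0.01 to 0.24, and the fold changes of the 4 genes to 3.37, 2.98, 2.81 and 2.39. The number of genes called was 4891 and ranged from 2857 without NoOp replicate 3 to 5764 without SNx replicate 3, with 3124 without NoOp replicate 2. The lowest and the highest number both came from fits on 5 libraries, and the cause of the range was not tested. When 1 library was left out, the difference in the log2 ratio of C1qa to C1qb ranged from -0.06 to 0.37 and that in the share of C1qb from -0.706 to 3.39 percentage points, so neither has a settled direction. The difference in C1qa to C1qc stayed between 0.52 and 0.66. The groups are separate animals, so no paired analysis was made. The planned count of other complement genes was not run. NoOp counts were 42 to 161 per gene and carry counting error. Without SNx replicate 3 the standard error of the log2 fold change fell from 0.49 to 0.2 for C3 and from 0.46 to 0.21 for C1qa. It fell from 0.49 to 0.28 for C1qb and from 0.5 to 0.19 for C1qc.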

Other observations

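The back-transformed values of the authors' normalized table were compared with the estimated counts of the same genes and libraries. For C3, C1qa, C1qb and C1qc they came to between 97.57% (C1qc in NoOp replicate 1) and 102.1% (C1qc in SNx replicate 3) of the count. On these values the difference between groups in the share of C1qa was 7.37 percentage points and that of C1qc -8.61 points, and both gave p = 0.1 in the exact two-sided permutation test, the smallest possible with 3 animals against 3.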
